A study of Homo sapiens with 12 samples.

Results

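The replication-dependent H2A genes encode histone H2A, a core protein of the nucleosome, and 8 of them were listed by transcript: H2AC4, H2AC8, H2AC11, H2AC12, H2AC16, H2AC17, H2AC20 and H2AC21. Rows were taken by transcript identifier, and 7 of the 8 transcripts were found among the 19686 of the RNA table and the 19849 of the footprint table. H2AC4 (ENST00000259791) was not analysed here. The tables give identifiers without gene names, so each gene name rests on the pairing of identifiers with genes in the list of members and was not checked against a transcript annotation.

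The libraries came from wild-type RKO cells, a colon cancer line of epithelial origin. Cells were first plated in full medium and then held for 24 hours in arginine-free DMEM with 10% dialyzed serum, to which 400 uM arginine (fed) or 12.5 uM arginine (starved) was added. RNA-seq measures transcript levels, and ribosome profiling sequences the fragments that ribosomes protect (footprints), so the design asks how low arginine alters both. Each combination of assay and treatment has 3 libraries, 12 in all, from a single cell line. The labels do not say whether the 3 came from separate cultures, so the spread behind each p-value is that among these libraries and may be technical. Library totals ranged from 4670881 to 7967215 counts for RNA and from 2063952 to 4364383 for footprints.

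Replication-dependent histone genes are transcribed mainly in S phase, when new DNA must be packaged, and their messages are short and lack introns. These messages end in a stem-loop bound by SLBP in place of a poly(A) tail, and they are degraded when DNA synthesis stops. The protein is rich in lysine and arginine, the amino acid that the starved medium held at a low level. In whole-culture libraries, fewer cells in S phase and less histone message per cell cannot be told apart.

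The 7 genes lie in histone clusters on chromosomes 6 and 1. H2AC8, H2AC11, H2AC12, H2AC16 and H2AC17 are on chromosome 6. H2AC8, H2AC11, H2AC16 and H2AC17 each have an H2B gene as a direct protein-coding neighbour there, and H2AC12 lies between the H4 gene H4C9 and the protease gene PRSS16. H2AC20 and H2AC21 neighbour each other on chromosome 1, with H2BC21 on the other side of H2AC20 (gene order from RefSeq). H2AC11, H2AC16 and H2AC17 are known to encode the same H2A protein, and near-identical copies may share reads in both assays.

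Promoter sequences were available from RefSeq (GRCh38.p14) for 6 of the 7 genes, and those of H2AC11, H2AC16, H2AC20 and H2AC21 are shown. H2AC11 had the only called change of efficiency, 1 of 6 members tested. Of all 11027 transcripts tested, 2519 were called in either direction, and 11.7% were called lower. H2AC16 had footprints without RNA counts, and the neighbours H2AC20 and H2AC21 had the smallest changes in footprints. Each promoter sequence runs 5′ to 3′ on the strand of its gene over the 250 bases before the annotated start. Capitals mark 3 motifs. The CCAAT box was searched as CCAAT or, for the opposite strand, its reverse complement ATTGG. The TATA box was searched as TATAAA or, for the opposite strand, its reverse complement TTTATA. The octamer of histone and other promoters was searched as ATTTGCAT or, for the opposite strand, its reverse complement ATGCAAAT. The windows are chr6:27132793-27133042 (plus strand) for H2AC11, chr6:27865067-27865316 (plus strand) for H2AC16, chr1:149886668-149886917 (plus strand) for H2AC20 and chr1:149887966-149888215 (minus strand) for H2AC21.
H2AC11: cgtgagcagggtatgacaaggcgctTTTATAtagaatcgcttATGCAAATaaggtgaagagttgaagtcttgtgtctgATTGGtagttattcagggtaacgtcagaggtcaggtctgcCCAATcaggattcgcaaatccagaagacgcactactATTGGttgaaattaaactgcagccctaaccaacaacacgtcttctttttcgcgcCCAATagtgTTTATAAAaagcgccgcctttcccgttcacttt
H2AC16: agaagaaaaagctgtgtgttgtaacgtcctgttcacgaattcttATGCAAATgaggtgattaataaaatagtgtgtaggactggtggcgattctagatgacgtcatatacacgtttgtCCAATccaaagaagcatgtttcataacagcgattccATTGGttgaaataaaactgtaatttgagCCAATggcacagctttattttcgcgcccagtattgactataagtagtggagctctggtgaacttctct
H2AC20: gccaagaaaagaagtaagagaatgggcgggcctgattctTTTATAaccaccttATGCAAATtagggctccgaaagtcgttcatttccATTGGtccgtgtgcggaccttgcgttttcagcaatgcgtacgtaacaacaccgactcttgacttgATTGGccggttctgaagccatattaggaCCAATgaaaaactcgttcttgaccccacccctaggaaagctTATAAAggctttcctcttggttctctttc
H2AC21: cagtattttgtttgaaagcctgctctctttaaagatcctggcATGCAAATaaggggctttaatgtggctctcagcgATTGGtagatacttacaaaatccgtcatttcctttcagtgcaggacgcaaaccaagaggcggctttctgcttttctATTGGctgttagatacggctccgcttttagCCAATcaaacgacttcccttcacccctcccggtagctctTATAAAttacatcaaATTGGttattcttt

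The octamer and CCAAT were found in all 6 promoters, and TATAAA in all but that of H2AC16. All 6 windows held the octamer, which 1.63% of the 35116 promoter windows of the same length contain, and 5 of the 6 held it on the strand opposite to the gene, between bases −208 and −185 counted from the start. The exception was H2AC17, with the octamer on the gene's strand from −98 to −91. Each of the 6 windows had 3 or 4 matches to CCAAT. At least 1 match is found in 32.0% of all windows and 3 or more in 2.93%. A match on the gene's strand lay between −70 and −64 in 5 of the 6, H2AC11 being the exception. TATAAA, present in 10.7% of all windows, was found in 5 of the 6. It lay between −33 and −24 in H2AC11, H2AC17, H2AC20 and H2AC21. The only match in H2AC8 was on the opposite strand, at −206 to −201. H2AC11 and H2AC20 also had a match on the opposite strand further from the start, at −225 to −220 and −211 to −206. In H2AC11 the matches on both strands overlap at −33 to −26. All 3 motifs occurred together in 0.159% of windows. The full set includes the promoters of other histone genes, and a match to a motif is a description of the letters, not of binding. Whether a window also covers part of the promoter of a neighbouring gene, such as an H2B gene, was not tested. A match on the opposite strand need not belong to the H2A gene.

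**Figure D1:**
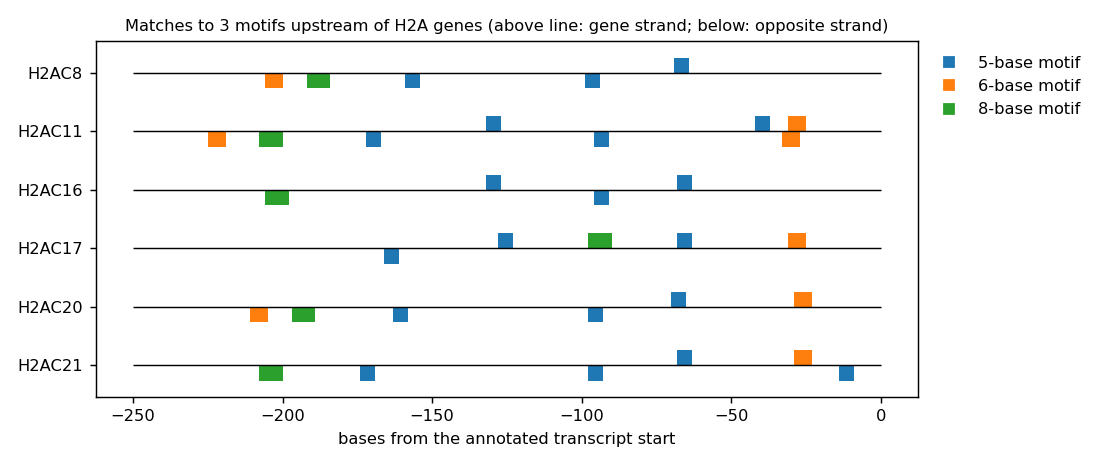
Matches to the 5-base (CCAAT), 6-base (TATAAA) and 8-base (ATTTGCAT) motifs in the 250 bases before the annotated start of 6 H2A genes. Boxes above a line are matches on the gene's strand and boxes below it are matches on the opposite strand. The 8-base motif lies between −208 and −185 in all but H2AC17.

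Ribosome footprints were fewer in starved cells on each of the 7 H2A transcripts. The 7 transcripts together took 0.700 ± 0.0452% of all footprints in fed cells and 0.268 ± 0.0209% in starved cells (SD over 3 libraries). All 7 were called lower in starved cells (quasi-likelihood test of edgeR, p adjusted by Benjamini-Hochberg over 13457 transcripts, called under 0.05). Of all transcripts tested, 20.9% were called lower. Every starved library lay under every fed library for all 7, as it did for 24.0% of the transcripts tested. The log2 fold changes, starved over fed, ran from −2.10 to −1.01 with a median of −1.50, beside a median of 0.05 over all transcripts tested. No spike-in is named in the labels, and a fold change here is set against the rest of its own assay.

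H2AC12 (ENST00000377459), on chromosome 6, had the largest fall in footprints among the 7. Its footprint level was 1119, 1224 and 1278 CPM (the count as a share of the library total, without TMM factors) in fed replicates 1 to 3. In starved replicates 1 to 3 it was 287, 273 and 315 CPM. The groups were far apart, and the log2 fold change was −2.10 (edgeR adjusted p = 2.22e-07, SE 0.11), a level 4.29-fold lower. Only 0.594% of all tested transcripts had a lower log2 fold change. H2AC11 (ENST00000359193) came next. Its fed libraries held 1168, 1215 and 1342 footprint CPM and its starved libraries 368, 341 and 398, in order of replicate. This was a log2 fold change of −1.80 (edgeR adjusted p = 4.64e-07, SE 0.11).

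H2AC16 and H2AC17 code for the same protein as H2AC11 and had smaller log2 fold changes. H2AC16 (ENST00000613174) had 365, 432 and 467 footprint CPM in fed and 149, 146 and 156 in starved replicates 1 to 3. The starved libraries were close together, and the log2 fold change was −1.54 (edgeR adjusted p = 3.12e-06, SE 0.13). H2AC17 (ENST00000359611) had 964, 921 and 1054 CPM in fed and 348, 339 and 390 CPM in starved replicates 1 to 3, which gave a log2 fold change of −1.50 (edgeR adjusted p = 1.33e-06, SE 0.11). H2AC8 (ENST00000303910), which codes for an H2A protein of slightly different sequence, varied more among fed libraries, with 961, 726 and 1026 CPM against 368, 334 and 388 CPM in starved replicates. Fed replicate 2 was the lowest of its group, and still above the starved libraries. The log2 fold change of H2AC8 was −1.36 (edgeR adjusted p = 1.11e-05, SE 0.13).

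The chromosome 1 neighbours had the smallest footprint changes of the 7, a difference from the others that was not tested. H2AC20 and H2AC21 encode type 2 H2A proteins, which differ from the type 1 proteins of the chromosome 6 genes at a few residues. H2AC20 (ENST00000331380) had the most footprints of the 7, with 1647, 1741 and 1804 CPM in fed and 901, 812 and 960 CPM in starved replicates 1 to 3. Its log2 fold change was −1.01 (edgeR adjusted p = 1.77e-05, SE 0.11). H2AC21 (ENST00000331128) had 484, 503 and 547 CPM in fed and 259, 222 and 278 CPM in starved replicates 1 to 3, and a log2 fold change of −1.07 (edgeR adjusted p = 3.14e-05, SE 0.12). The footprints of H2AC20 fell 2.01-fold and those of H2AC21 2.09-fold.

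**Figure D2:**
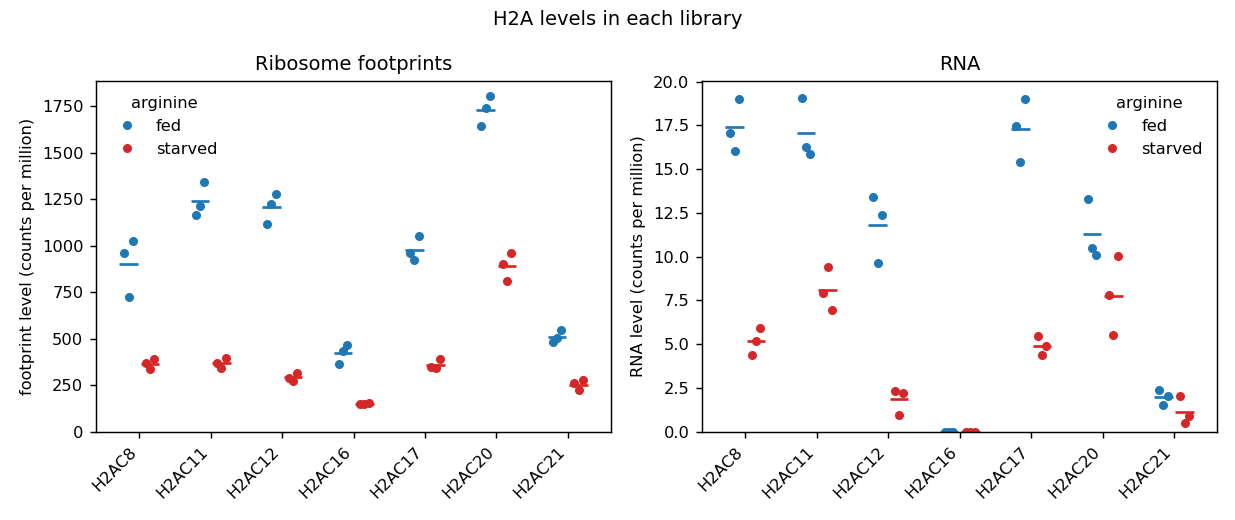
Level of each H2A transcript in every library, in CPM, for ribosome footprints (left) and RNA (right). Points are libraries, short lines are means of 3, blue is fed and red is starved. Fed and starved footprint libraries are apart for all 7 transcripts, and RNA levels are at or below 19.1 CPM throughout.

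The makeup of the H2A footprints differed between fed and starved libraries. H2AC20 and H2AC21 together gave 32.1 ± 0.996% of the footprints on the 7 transcripts in fed cells and 42.7 ± 0.717% in starved cells (SD over 3 libraries). The share of H2AC20 was 24.0% to 25.8% in fed and 32.9% to 33.6% in starved libraries, and that of H2AC21 was 7.21% to 7.44% and 8.99% to 9.66%. The share of H2AC12 was lower in starved libraries, 10.7% to 11.1% beside 16.7% to 18.1%, as was that of H2AC11, 13.7% to 13.8% beside 17.4% to 18.0%. Fed and starved ranges overlapped for H2AC8, H2AC16 and H2AC17. These shares do not depend on how the libraries are scaled. They may depend on how reads from near-identical copies were assigned, which is not given in the sources used here. The split by chromosome was made after the values had been seen and has no test, and an exact permutation test of 3 against 3 libraries cannot go below p = 0.1.

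**Figure D3:**
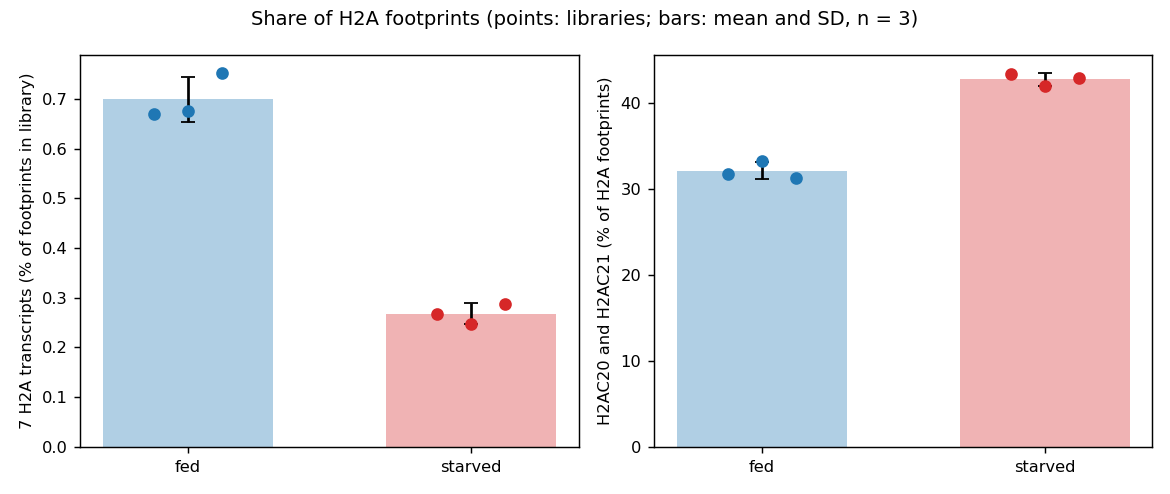
Footprints on the 7 H2A transcripts as a percent of all footprints in a library (left), and the percent of those H2A footprints that lie on H2AC20 and H2AC21 (right). Points are libraries and bars are means with the SD of 3. Starved libraries are lower on the left, at 0.247% to 0.288%, and higher on the right, at 41.9% to 43.3%.

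Per kilobase of gene, the footprint levels of the 7 fell into a partial order in fed cells. RefSeq gene lengths, 457 to 517 bases, were used, and the transcripts counted by the authors may differ in length. These are lengths of the whole gene, not of the coding sequence. The part of reads shared between near-identical copies in this order was not tested. H2AC20 stood first with 3504 ± 159 CPM per kilobase (SD, n = 3), followed by H2AC12 with 2641 ± 177, H2AC11 with 2518 ± 182, H2AC17 with 2012 ± 139 and H2AC8 with 1749 ± 305. H2AC21 with 1028 ± 64.9 and H2AC16 with 874 ± 108 CPM per kilobase came last. The libraries of H2AC12 and H2AC11 overlapped, as did those of H2AC17 and H2AC8, so these neighbours in the order were not set apart. In mean CPM, without division by length, H2AC11 (1241) stood above H2AC12 (1207) in fed cells. In starved cells H2AC20 remained first at 1804 ± 151 CPM per kilobase. H2AC11, H2AC17, H2AC8 and H2AC12 followed between 637 and 749 CPM per kilobase, each overlapping the next, and H2AC21 and H2AC16 were again last at 509 ± 57.6 and 312 ± 10.03.

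RNA levels fell too, from a far lower starting level. The 7 transcripts took 0.00768 ± 0.000681% of RNA counts in fed cells and 0.00289 ± 0.000264% in starved cells (SD over 3 libraries), with 324 to 659 counts in each fed and 160 to 219 in each starved library. The kit named in the labels, used by its standard procedure, enriches RNA with poly(A) tails, which these messages lack. Its part in the low RNA counts was not tested. H2AC16 had no RNA count in any library and could not be tested. Of the other 6, 5 were called lower and none higher (the same edgeR test, adjusted over 11572 transcripts). Of all transcripts tested, 34.1% were called lower. In these 5 every starved library lay under every fed library, as in 41.2% of tested transcripts. The median log2 fold change of the 6 was −1.32, beside −0.01 over all tested. H2AC12 and H2AC21 reached the level needed for testing in all 3 fed libraries but not in all starved ones, and without that filter on low counts 5 of the 6 were called as well.

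H2AC12, which encodes a type 1 H2A protein, had the largest RNA change of the 6. Its counts were 107, 45 and 86 in the fed libraries, or 13.4, 9.63 and 12.4 CPM, and 17, 6 and 15 in the starved ones, or 2.32, 0.970 and 2.21 CPM. The log2 fold change was −2.57 (edgeR adjusted p = 2.69e-15, SE 0.23). H2AC8 and H2AC17 followed with RNA changes close to each other. H2AC8 had 17.1, 16.1 and 19.03 CPM in fed and 4.37, 5.17 and 5.90 CPM in starved replicates 1 to 3, a log2 fold change of −1.65 (edgeR adjusted p = 2.09e-13, SE 0.17). H2AC17 had 17.4, 15.4 and 19.03 CPM in fed and 5.46, 4.36 and 4.87 CPM in starved replicates 1 to 3, a log2 fold change of −1.71 (edgeR adjusted p = 8.03e-14, SE 0.17).

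H2AC11 had the smallest RNA change of the 4 chromosome 6 genes that could be tested, and the highest starved RNA level among them. It had 19.1, 16.3 and 15.9 CPM in fed and 7.92, 9.38 and 6.93 CPM in starved replicates 1 to 3, a log2 fold change of −0.98 (edgeR adjusted p = 1.00e-07, SE 0.16). H2AC20 RNA was 13.3, 10.5 and 10.1 CPM in fed and 7.78, 5.50 and 10.03 CPM in starved replicates 1 to 3. Starved replicate 3 reached almost the level of fed replicate 3, and the log2 fold change of −0.43 (edgeR adjusted p = 0.0271, SE 0.18) moved with single libraries. It was −0.66 (edgeR adjusted p = 0.00235) without starved replicate 3. It was −0.27 (edgeR adjusted p = 0.255) without fed replicate 1, −0.43 (0.0543) without starved replicate 1 and −0.23 (0.264) without starved replicate 2, and it was not called by the Wald test of DESeq2 (adjusted p = 0.107) or once the trend of each library with abundance was removed (−0.25, edgeR adjusted p = 0.212).

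H2AC21 RNA was at the edge of detection. It had 19, 7 and 14 counts in fed and 15, 3 and 6 counts in starved replicates 1 to 3, and the groups overlapped. Its log2 fold change of −0.67 (edgeR adjusted p = 0.115, SE 0.38) was not called. Starved replicate 1 was the highest of its group, and without it the log2 fold change was −1.42 (edgeR adjusted p = 0.00871). Starved replicate 2 was the lowest, and without it the log2 fold change was −0.32 (edgeR adjusted p = 0.499).

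**Figure D4:**
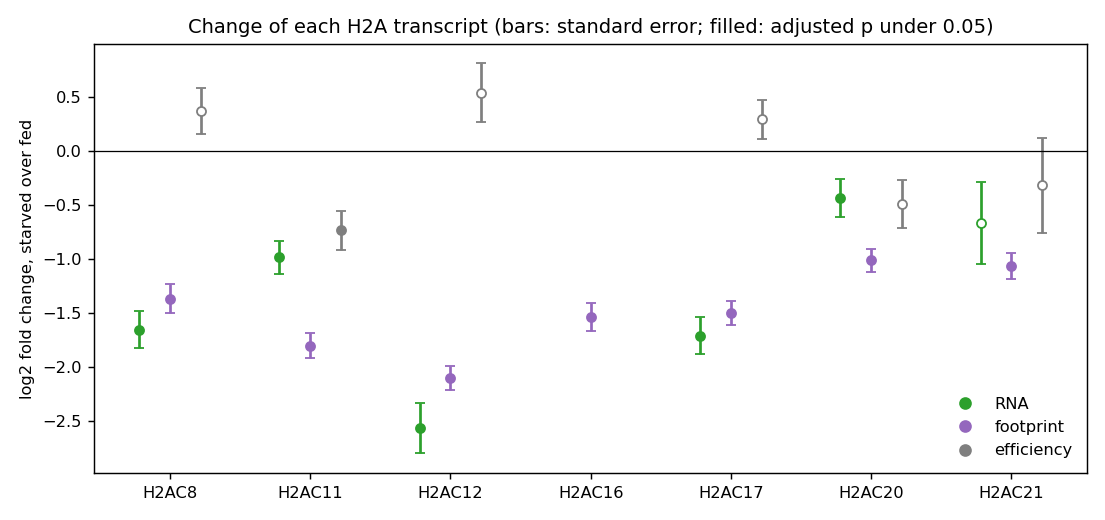
Log2 fold change, starved over fed, of each H2A transcript in RNA, footprints and translational efficiency (footprints relative to RNA). Bars are standard errors, filled points have an adjusted p under 0.05, and H2AC16 has a footprint value only. Footprint values lie between −2.10 and −1.01, and efficiency values lie on both sides of 0.

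Efficiency was called changed on 1 of the 6 H2A transcripts that could be tested. Translational efficiency relates the footprints of a transcript to its RNA, and its change was the interaction term of 1 fit over all 12 libraries. The RNA kit, by its standard procedure, enriches RNA with poly(A) tails, which these messages lack. Near-identical copies may also share reads. The part of either in the efficiency values was not tested. The transcript called was H2AC11, with lower efficiency in starved cells. Of the 11027 transcripts tested, 11.7% were called lower (1292, beside 1227 higher). That split depends on scaling: it was 803 lower and 1567 higher with library totals alone, and 1740 lower and 1005 higher with each assay scaled on its own transcripts. It was 1705 lower and 1032 higher without the filter on low counts. H2AC11 was called lower under each of these. Its log2 efficiency change was −0.73 (edgeR adjusted p = 0.00561, SE 0.18). In the separate fits its footprints fell 3.48-fold and its RNA 1.98-fold. Those fits scale each assay on its own transcripts, and the interaction on that scaling was −0.82 (edgeR adjusted p = 0.00232). Over the 6 transcripts the median log2 change of efficiency was −0.01, beside −0.02 over all tested. The median of the 6 was not stable: it was 0.31 without starved RNA replicate 1, −0.23 without starved RNA replicate 2, −0.23 with the trend with abundance removed and 0.09 with library totals alone.

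The other 5 did not pass the test, and their estimates pointed both ways. H2AC12, H2AC8 and H2AC17 had log2 efficiency changes of 0.54 (SE 0.27), 0.37 (SE 0.21) and 0.30 (SE 0.18), with edgeR adjusted p of 0.155, 0.224 and 0.244. H2AC20 had −0.49 (edgeR adjusted p = 0.121, SE 0.22) and H2AC21 −0.31 (edgeR adjusted p = 0.65, SE 0.44). H2AC21, with RNA counts as low as 3 in a library, had the widest standard error, and an uncalled efficiency need not be unchanged. The value of H2AC20 moved both ways with single RNA libraries: without starved replicate 2 its log2 change was −0.71 (edgeR adjusted p = 0.0222) and without starved replicate 3 it was −0.27 (edgeR adjusted p = 0.453), and with the trend with abundance removed it was −0.65 (edgeR adjusted p = 0.045). For H2AC12 the value was 0.23 (edgeR adjusted p = 0.564) without starved RNA replicate 2. For H2AC21 the sign turned to 0.41 (edgeR adjusted p = 0.545) without starved RNA replicate 1.

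The H2A transcripts carried many footprints for the RNA that was counted. The RNA kit, by its standard procedure, enriches RNA with poly(A) tails, which these messages lack, and its part in these ratios was not tested. In fed cells the ratio of mean footprint CPM to mean RNA CPM was 52.02 for H2AC8, 56.6 for H2AC17, 72.7 for H2AC11, 102 for H2AC12, 153 for H2AC20 and 260 for H2AC21. The median over 11024 transcripts kept in both assays with RNA counts in fed cells was 0.878, and 84 of them (0.762%), the other H2A transcripts included, had a ratio above that of H2AC8, the lowest of the 6. In starved cells the ratio ran from 45.7 for H2AC11 to 222 for H2AC21, beside a median of 0.919 over 11026 transcripts. For H2AC16 the fed RNA libraries allow at most 0.153 CPM (3 counts over the group, counting error only). Its footprint level was 2750-fold that limit. This is a lower bound of the ratio only if RNA reads from H2AC16 were counted on its own row. In starved cells the same bound was 1016-fold. How reads from near-identical copies were assigned is not given in the sources used here, and whether RNA reads from H2AC16 were counted on other copies was not tested.

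**Figure D5:**
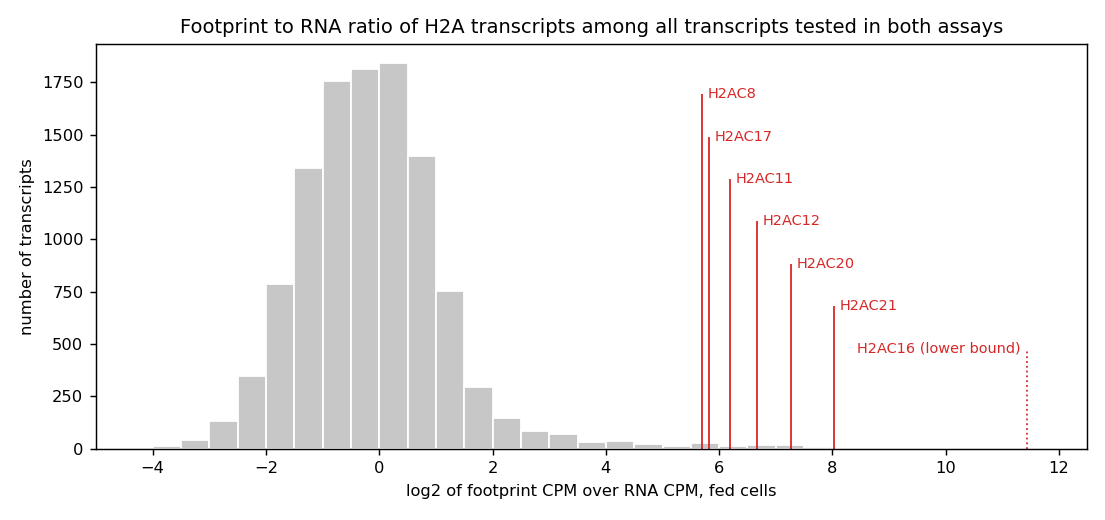
Ratio of footprint CPM to RNA CPM in fed cells on a log2 axis. Grey bars count all transcripts kept in both assays, and red lines mark H2A transcripts, with line heights chosen only to separate the names. The 6 H2A transcripts with RNA counts lie at the far right of the distribution, and H2AC16 is drawn at its lower bound.

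Among other transcripts above a cutoff on level in both assays, ENST00000336219 and ENST00000237654 varied most like the H2A mean over the libraries. Likeness was the smaller of 2 Pearson correlations of log2 CPM with the mean of 6 H2A transcripts, taken over the 6 RNA and over the 6 footprint libraries, among 7009 transcripts whose average log2 CPM reached 4 in each assay. It was 0.989 for ENST00000336219 and 0.988 for ENST00000237654, beside a median of −0.45 over all candidates. The libraries form 2 groups, so these values mostly reflect the difference between fed and starved cells. The 6 H2A transcripts themselves averaged 0.93 to 3.68 log2 CPM in RNA, under the cutoff. Transcripts at their RNA level were therefore not candidates. ENST00000336219 had a log2 fold change of −0.61 in RNA and −0.91 in footprints, and ENST00000237654 of −0.51 and −1.95. These identifiers are not paired with gene names here.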

How the data were processed

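RNA and ribosome footprints of fed and starved RKO cells were analysed from 2 tables that the authors deposited as whole-number counts per Ensembl transcript, without normalization. The submitters' processing notes name STAR, cutadapt, DESeq2 and UMI-tools and the build GRCh38.p13, without roles or order. Per the labels' protocols, RNA libraries were made with a TruSeq RNA v2 kit. The protocols also name depletion of ribosomal RNA with RiboCop, and which assay it served is not set out here. The poly(A) step is taken from the kit's standard procedure. The treatment of reads mapping to several places is not given in the sources used here, nor is the counting tool or annotation.

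For each table, edgeR 4.0.16 (R 4.3.3) ran two-sided quasi-likelihood tests with TMM factors, on transcripts kept by filterByExpr, with Benjamini-Hochberg adjustment over all of them. RNA and footprints were fitted separately, and efficiency as the interaction of assay and treatment over transcripts kept in both. Log2 CPM used a prior count of 2. DESeq2 1.42.0, other scalings, no filter on low counts, the replicate number as a block and left-out libraries were alternatives. Every member is named, and of other transcripts above the cutoff on level the 2 most alike. The members and lists were chosen with earlier results of these data known. Of 19849 identifiers, 0 matched the gene tables used here, so planned lists of histone-processing genes, H2A variants and cell type markers were not analysed, nor were protein sequences. Groups follow the sample titles.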

Additional observations from a re-analysis of the deposited data

Results flagged for a closer look

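The efficiency of H2AC11 differed between treatments in the interaction of assay and treatment, with a log2 value of −0.73 (SE 0.18, edgeR adjusted p = 0.00561): its footprints fell further than its RNA. It was the 1 call among 6 members tested. Of all 11027 transcripts tested, 2519 were called in either direction, a share no smaller than among the members. Those called lower were 11.7%. The adjusted p of H2AC11 over its alternatives was lowest, 0.00165, in DESeq2 (Wald test) and highest, 0.0237, without starved RNA replicate 2. Groups of 3 libraries are too small for the test of a single outlying library. Poly(A) enrichment by the RNA kit and reads shared between near-identical copies may bear on the H2AC11 counts, which was not tested.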

How the results depend on the processing

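The 7 footprint calls were found under every alternative run, with 7 called in each. For RNA, 4 or 5 of 6 were called in every alternative: 4 with the abundance trend removed, in DESeq2's Wald test, and without fed replicate 1 or starved replicate 2, and the call lost was that of H2AC20. Without starved replicate 1 the count stayed at 5, but H2AC20 was not called (edgeR adjusted p = 0.0543) and H2AC21 was (edgeR adjusted p = 0.00871). For efficiency, 1 was called in each alternative except 2 with the abundance trend removed, and 1 to 2 when single libraries were left out. The median efficiency change of the 6 ranged from −0.23 to 0.31 when single libraries were left out. The efficiency change of H2AC21 ranged from −0.68 to 0.41 when single libraries were left out. Scaling each assay on its own transcripts, chosen after seeing the data, also gave 1 efficiency call. Library totals alone shifted the RNA median of log2 fold changes, all transcripts included, from −0.01 to −0.12, and the footprint median from 0.05 to 0.10. With the 8 listed members summed to 1 row, of which 7 had counts, RNA changed by −1.30 (log2), footprints by −1.44 and efficiency by −0.07. Replicate numbers showed no clear pairing of the libraries. Correlations of same-numbered deviations ran from −0.19 to 0.11 between treatments and from −0.02 to 0.13 between assays. Not every library correlated best with its own number, and 3 libraries per group cannot exclude a pairing. With a replicate block, 5 RNA, 7 footprint and 1 efficiency calls were made. Low RNA depth, 3 to 152 counts per library in the 6 transcripts with any, limits what the efficiency test can show.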
